A study of Homo sapiens with 2 samples.

Results

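The members are 10 genes whose products restrain the ERK MAP kinase pathway: DUSP1, DUSP2, DUSP4, DUSP5, DUSP6, DUSP8, SPRY2, SPRY4, SPRED1 and SPRED2. They were taken by name, as every probe set whose platform annotation gives 1 of these symbols and no other, which gave 21 of 54675 probe sets and 10 of 19775 genes. The samples were HEK293T cells, a human line of embryonic kidney origin with the large T antigen of a simian virus. Cells carried either pcDNA3.1-IRX1::GFP, which encodes the homeobox protein IRX1 fused to GFP (called IRX1::GFP here), or pcDNA3.1-GFP, which encodes GFP alone (GFP control). Both vectors were introduced transiently with polyethylenimine, GFP-positive cells were sorted 48 h later, and total RNA was hybridised to Affymetrix HG-U133 Plus 2.0 arrays, 1 array per condition analysed here. With a single array per condition there was no replicate, so no error between cultures and no p-value is given.

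ERK is the last kinase of a cascade that runs from growth factor receptors through RAS, RAF and MEK. Active ERK switches on genes of its own inhibitors, which makes these inhibitors widely used readouts of pathway output. The DUSP proteins of this group are MAP kinase phosphatases, which remove phosphate from both the threonine and the tyrosine of the activation loop: DUSP1, DUSP2, DUSP4 and DUSP5 act in the nucleus, DUSP6 acts on ERK in the cytoplasm, and DUSP8 prefers the stress kinases JNK and p38. Sprouty (SPRY) and Spred (SPRED) proteins act upstream of MEK, and Spred proteins bring the RAS inactivator neurofibromin (NF1) to the membrane.

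Values are MAS5 signals, a linear intensity that the authors scaled within each array. Each log2 ratio has IRX1::GFP on top, so positive values mean more signal with IRX1::GFP. Where a gene has several probe sets, the brightest (by the mean of both arrays) stands for it. A gene passed the filter when this mean was at least 183, and was called at 2-fold or more. As a background level, the 90th percentile over olfactory receptor genes (107 probe sets) was 179 on the IRX1::GFP array and 143 on the GFP control array. A fold with 1 signal under background is a lower bound against that level, and no fold is given with both under it. Log2 ratios of probe sets that share a gene varied with an SD of 0.49 (5930 genes), called the probe set SD here, which was the only measure of noise and leaves out differences between cultures.

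A few facts of the whole arrays bear on these values. Of 6 genes known to be expressed in HEK293T cells, all were above background with IRX1::GFP and all but PAX2 in the GFP control. Of 7 genes of other cell types, HBB (263 and 242 in IRX1::GFP and GFP control) and COL1A1 (2571 and 631) were above background on both arrays, and CD3E and ALB in the GFP control only, at 244 and 219, so signals of this height do not show expression by themselves. The IRX1 probe set read 57.0 with IRX1::GFP and 33.1 in the GFP control, both under background, and whether it lies in the transfected cDNA is not known. The ratio of 3-prime to 5-prime control probe sets, a sign of RNA quality, was 1.64 with IRX1::GFP and 3.23 in the GFP control for ACTB, and 1.01 and 1.22 for GAPDH. The part of RNA quality in the member values was not tested.

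The 250 bases before the start site were read from RefSeq (GRCh38.p14) for 8 of the 10 members, not for DUSP4 and DUSP5. Of these windows 3 are printed because they hold the motif matches of DUSP1, DUSP8 and SPRY2. DUSP1 and DUSP8 were higher on their brightest probe sets, and SPRY2 was lower. However, the DUSP8 probe sets disagreed in direction, and the SPRY2 difference was smaller than the probe set SD. Capitals mark matches on either strand to the cyclic AMP response element TGACGTCA, to its part TGACG, which is also contained on both strands of the full palindrome, or to the EGR site GCGGGGGCG. Each window is on the minus strand and runs 5′ to 3′ towards the start site, at chr5:172771196-172771445 for DUSP1, chr11:1572272-1572521 for DUSP8 and chr13:80341127-80341376 for the first of the 3 SPRY2 start sites.
DUSP1: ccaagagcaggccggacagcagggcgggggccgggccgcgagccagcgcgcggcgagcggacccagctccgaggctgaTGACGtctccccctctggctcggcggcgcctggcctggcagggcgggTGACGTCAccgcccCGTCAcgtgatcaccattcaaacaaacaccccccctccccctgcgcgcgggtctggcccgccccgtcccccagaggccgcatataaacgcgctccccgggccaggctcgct
DUSP8: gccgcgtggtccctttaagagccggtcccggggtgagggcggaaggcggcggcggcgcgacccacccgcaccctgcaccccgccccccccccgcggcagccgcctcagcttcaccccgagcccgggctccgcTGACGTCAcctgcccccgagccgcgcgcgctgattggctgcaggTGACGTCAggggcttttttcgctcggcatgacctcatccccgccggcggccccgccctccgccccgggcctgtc
SPRY2: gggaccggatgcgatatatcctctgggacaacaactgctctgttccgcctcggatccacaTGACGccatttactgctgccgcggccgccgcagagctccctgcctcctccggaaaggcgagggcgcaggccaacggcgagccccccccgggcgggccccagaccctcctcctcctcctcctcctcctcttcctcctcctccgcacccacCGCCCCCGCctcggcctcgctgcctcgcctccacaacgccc
The 8 genes have 11 windows, 1 for each start site. The full TGACGTCA lay in 2 of the 11, those of DUSP1 (bases -125 to -118 from the start site) and DUSP8 (-118 to -111 and -74 to -67), and in 1.65% of 35116 promoters of the same length. TGACG lay in 4 of the 11, with SPRY2 and SPRY4 added, and in 21.2% of all promoters. The EGR site lay in 2 of the 11, those of DUSP2 (-103 to -95) and SPRY2 (-41 to -33), and in 4.72% of all promoters. No member window held the ETS core CCGGAAGT, the CArG box that SRF binds, or ACANNTGT, an Iroquois site known from Drosophila, which were found in 3.42%, 1.16% and 4.71% of all promoters. The shares over all promoters were not matched for GC content. The windows with a full TGACGTCA or an EGR site had 70.4% (SPRY2) to 76.8% (DUSP8) GC, against a median of 58% over all promoters. DUSP4 and DUSP5, for which no window was read, are the members called past 2-fold below. These are matches of letters in a short window, and binding was not measured here.

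Of the 10 members, 9 passed the filter, and with IRX1::GFP the signals of DUSP4 and DUSP5 exceeded 2-fold, while no member was 2-fold lower. Among all 12193 genes that passed, the shares past 2-fold were 10.4% higher and 5.34% lower. No member gene reached 4-fold, against 1.59% of all genes higher and 0.533% lower. The median log2 ratio of the 9 genes was 0.48, and that of all genes past the filter was 0.07. Some suffixes (such as s, x or a) mark probes shared between transcripts. When such probe sets were dropped, 6 members were left and these medians were 0.11 and 0.04. The distance of the members from all genes thus rests on which probe sets are used. The brightest probe sets of all 5 DUSP genes past the filter had positive log2 ratios, with a median of 0.85, beside positive ratios for 6600 of all 12193 genes. As the mean over probe sets 4 of the 5 were positive, since the DUSP8 probe sets disagreed. Of the 4 SPRY and SPRED genes 3 had negative ones, with a median of -0.38, and SPRY4 was the exception. With 1 array per condition, an effect of IRX1 and a difference between cultures, sorts or arrays cannot be told apart, and in bulk RNA neither can fewer cells that express a gene and less RNA per cell. These counts and medians describe a pair of arrays, and the difference between the DUSP and the SPRY and SPRED genes was not tested.

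Counted as probe sets, 13 of 21 passed the filter, and 5 of them (2 of DUSP1, 2 of DUSP4 and 1 of DUSP5) were at least 2-fold higher, beside 9.15% of 22633 named probe sets. None was at least 2-fold lower, beside 6.02%. The ratio of a single one, the dimmest of DUSP1, came to 4-fold higher, beside 1.36% of all probe sets (0.53% were 4-fold lower), but its GFP control signal was under background, so that only a bound below 4-fold holds for it. Probe sets of one gene share their transcript, and some passed the filter through their IRX1::GFP signal alone. Both signals were above background for 11 member probe sets, only the IRX1::GFP signal for 4, and neither for 6.

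**Figure D1:**
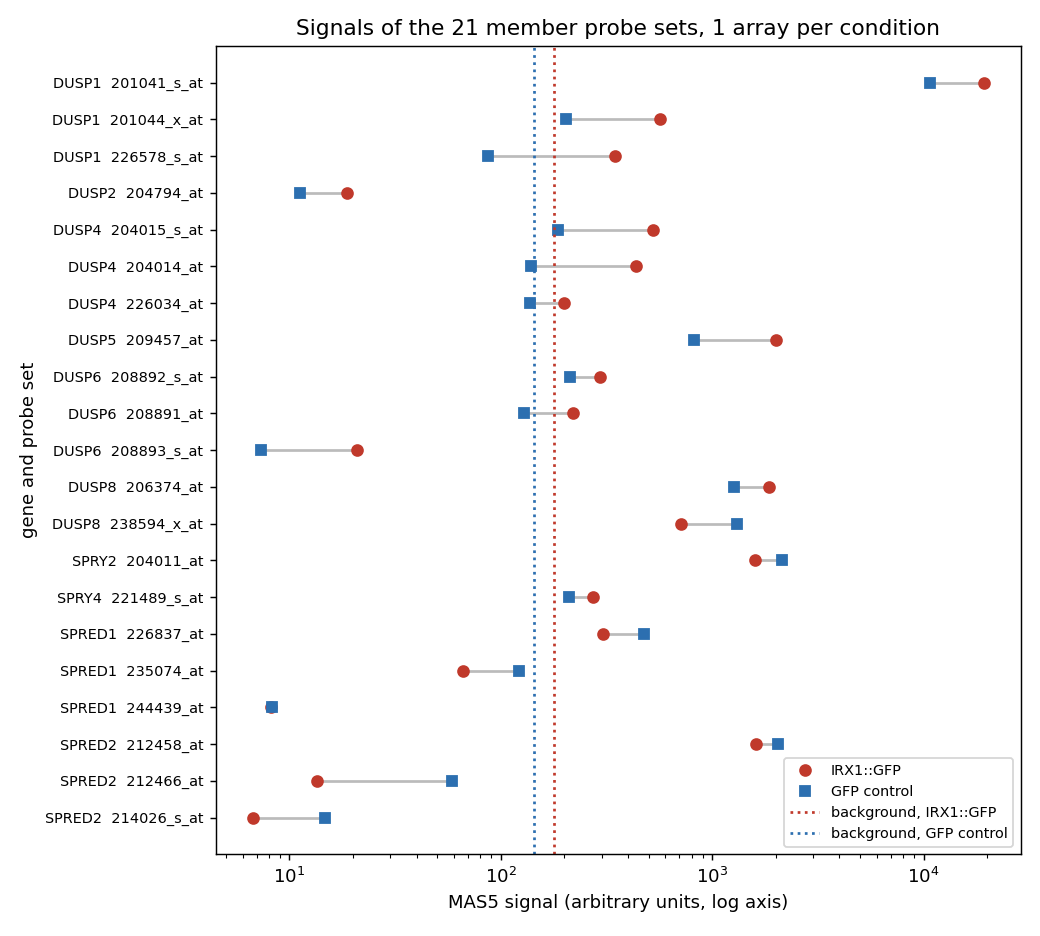
MAS5 signal (x, log axis, arbitrary units) of each of the 21 member probe sets (y) on the IRX1::GFP array (red circles) and the GFP control array (blue squares), with dotted lines at each array's background of 179 and 143. The red circle lies right of the blue square for 12 of 13 DUSP probe sets and left of it for 7 of 8 SPRY and SPRED probe sets. However, 6 probe sets lie under both lines, where the side means little. Among probe sets with a signal above background, the red circle lies right for 10 of 11 DUSP and left for 3 of 4 SPRY and SPRED probe sets.

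Among the nuclear phosphatases, DUSP1, an immediate early gene whose product acts on p38, JNK and ERK, was higher with IRX1::GFP on all 3 of its probe sets. The brightest (201041_s_at) read 19301 with IRX1::GFP and 10719 in the GFP control, 1.8-fold higher, a log2 ratio of 0.85 that is within 2-fold. The 2 dimmer ones differed more. Probe set 201044_x_at, whose suffix marks probes that may bind other transcripts, read 567 and 203, 2.79-fold higher, and 226578_s_at read 348 and 86.9, the GFP control signal under background, so at least 2.43-fold higher. The probe sets thus had the same direction and differed in size. All 3 carry a suffix for probes shared between transcripts, so DUSP1 had no value when such probe sets were dropped. The call for DUSP1 depends on which of them stands for the gene, since the mean over its probe sets was a log2 ratio of 1.44, which includes the one with a GFP control signal under background.

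DUSP4, a nuclear phosphatase of ERK and JNK, gave the largest log2 ratio among the brightest probe sets of the members. Its brightest probe set (204015_s_at) read 524 with IRX1::GFP and 187 in the GFP control, 2.81-fold higher, a log2 ratio of 1.49. The next (204014_at) read 434 and 139, at least 3.03-fold higher because the GFP control signal was under background. The third (226034_at) read 199 and 137 and did not pass the filter. All 3 had higher signals with IRX1::GFP, and all 3 GFP control signals were near or under background, so the size of the difference is less certain than its direction on these arrays.

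DUSP5, a nuclear phosphatase that acts on ERK and not on JNK or p38, has a single probe set (209457_at). It read 2004 with IRX1::GFP and 824 in the GFP control, 2.43-fold higher, a log2 ratio of 1.28. Both signals were well above background, and DUSP5 was the member past 2-fold that rests least on dim signals. DUSP2, the fourth nuclear phosphatase and best known from activated immune cells, read 18.8 and 11.3, both under background on its single probe set, so no fold is given.

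DUSP6, the cytoplasmic ERK phosphatase, was dim. Its brightest probe set (208892_s_at) read 296 with IRX1::GFP and 212 in the GFP control, 1.4-fold higher and a log2 ratio of 0.48, which is smaller than the probe set SD. Probe set 208891_at read 219 and 129, at least 1.53-fold higher, and 208893_s_at read 21.0 and 7.32, under background on both arrays. All 3 had positive log2 ratios, but the signals lie near those of HBB on the same arrays.

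The DUSP8 probe sets disagreed in direction. Probe set 206374_at read 1850 with IRX1::GFP and 1261 in the GFP control, 1.47-fold higher. Probe set 238594_x_at, with the same suffix as 201044_x_at, read 715 and 1313, 1.84-fold lower. Their log2 ratios of 0.55 and -0.88 lay 1.43 apart, and as the mean over both the log2 ratio of DUSP8 was -0.16, so no direction can be given for this gene.

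**Figure D2:**
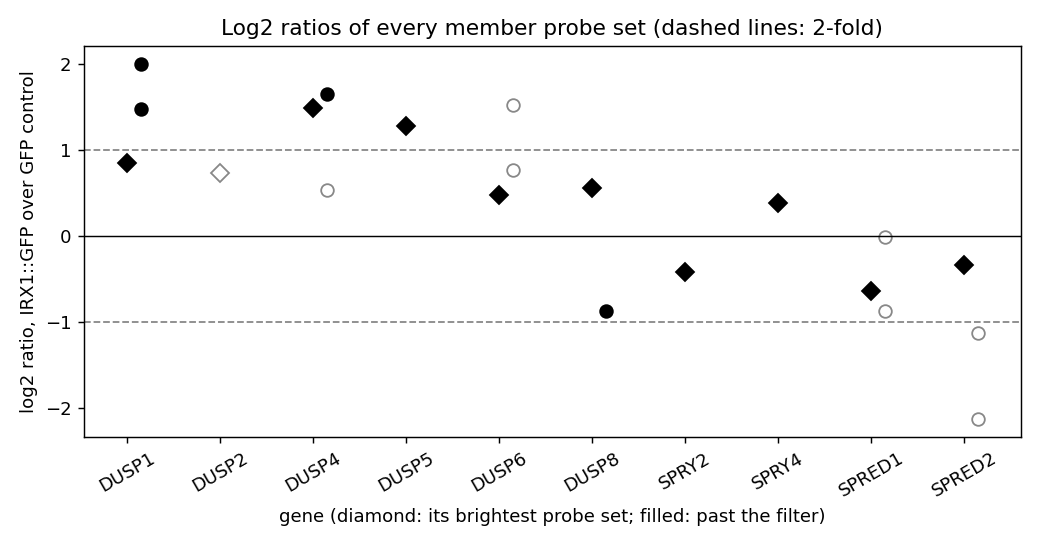
Log2 ratio (y, IRX1::GFP over GFP control) of every probe set of each member gene (x), with diamonds for the brightest probe set of a gene, circles for the others, filled symbols for those past the filter and dashed lines at 2-fold. All filled DUSP symbols but 1 of DUSP8 lie above 0. The filled symbols of SPRY2, SPRED1 and SPRED2 lie between -0.34 and -0.64, and that of SPRY4 lies above 0 at 0.38.

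The Sprouty genes differed little between the conditions. SPRY2, whose product binds adaptors of receptor tyrosine kinases, read 1599 with IRX1::GFP and 2145 in the GFP control, 1.34-fold lower, with a log2 ratio of -0.42. SPRY4, which acts on RAF activation, read 273 and 209, 1.3-fold higher, with a log2 ratio of 0.38. Each has 1 probe set, the 2 differences have opposite signs, and both are smaller than the probe set SD. The SPRY4 signals are also near those of HBB.

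The Spred genes had lower signals with IRX1::GFP. SPRED1, in which loss of function causes a RAS pathway syndrome, read 304 with IRX1::GFP and 476 in the GFP control on its brightest probe set (226837_at), 1.56-fold lower, a log2 ratio of -0.64. Its 2 other probe sets were under background on both arrays, at 66.6 and 122, and at 8.16 and 8.23. SPRED2 read 1616 and 2041 on its brightest probe set (212458_at), 1.26-fold lower, a log2 ratio of -0.34. Its others were under background, at 13.5 and 59.0, and at 6.69 and 14.7. Of these, only the SPRED1 value was past the probe set SD, and none reached 2-fold.

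The other genes of the pathway were taken from fixed lists, with the brightest probe set for each gene. Of 9 phosphatases outside the members that passed the filter, 2 were at least 2-fold higher and 1 lower, with a median log2 ratio of -0.33. DUSP9 and DUSP7, which like DUSP6 act on ERK in the cytoplasm, were higher with IRX1::GFP, DUSP9 at 1134 against 480 in the GFP control (2.36-fold) and DUSP7 at 2227 against 1059 (2.1-fold). DUSP16, which like DUSP8 prefers JNK and p38, read 765 and 1830, 2.39-fold lower, and its next probe set read 749 and 1839, while its dimmest read 240 and 123. DUSP14, a small phosphatase, read 7264 and 14082, 1.94-fold lower and also within 2-fold. After median centring only 1, DUSP9, was higher, and 2, DUSP14 and DUSP16, were lower.

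Of 12 inhibitors of other kinds past the filter, none was at least 2-fold higher and 2 were lower. Their median log2 ratio was -0.32, and -0.13 as the mean over probe sets. NF1, the neurofibromin that Spred proteins recruit, read 229 with IRX1::GFP and 589 in the GFP control. This was 2.57-fold lower on the only probe set annotated to NF1 and no other gene. LRIG3, a membrane protein related to a receptor inhibitor, read 335 and 838, 2.5-fold lower. SPRY1, the third Sprouty gene here, read 1000 and 1744 on its brightest probe set, 1.74-fold lower, and 508 and 381 on the other, so its probe sets disagreed. SOCS3, an inhibitor of cytokine receptors, read 275 and 159, 1.72-fold higher.

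On their brightest probe sets, the kinases that these inhibitors act on were within 2-fold. Of the 21 listed genes of the RAS, RAF, MEK and ERK cascade 15 were analysed here and passed the filter, and none was at least 2-fold higher or lower, with a median log2 ratio of 0.06. The largest differences were those of HRAS, a RAS gene, at 5845 with IRX1::GFP and 3054 in the GFP control (1.91-fold higher), of the ERK-activated kinase gene RPS6KA1 at 1271 and 692 (1.84-fold higher), of the RAS activator SOS2 at 616 and 1101 (1.79-fold lower, though its second probe set read 360 and 212) and of ARAF at 987 and 1629 (1.65-fold lower). MAP2K2, which encodes a MEK, read 5101 with IRX1::GFP and 3222 in the GFP control on its brightest probe set. Its second probe set read 1561 and 713, past 2-fold higher. Of 10 JNK and p38 pathway genes 1 was at least 2-fold lower, MAP3K1, an upstream kinase, at 1197 and 2652 (2.22-fold), and none was higher. Next in size were MAP2K4 at 2026 and 3212 (1.59-fold lower), MAP3K7 at 2526 and 3685 (1.46-fold lower) and MAPK9 at 6536 and 4678 (1.4-fold higher).

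At the top of the pathway, 2 of 7 ligand genes that passed were past 2-fold higher and none lower. These counts depend on the filter: they were 4 and 1 of 11 with a filter on the olfactory receptor level, 5 and 2 of 18 with none, and 0 and 0 of 3 at the 75th percentile. PDGFA, a platelet-derived growth factor chain, read 940 with IRX1::GFP and 227 in the GFP control, 4.14-fold higher, and its second probe set read 584 and 111. FGF9, a fibroblast growth factor, read 692 and 315, 2.2-fold higher, but 105 and 156 on its second probe set. FGF18 read 748 and 1358, 1.82-fold lower. HBEGF, a ligand of the EGF receptor, read 4142 and 2798, 1.48-fold higher, but 1648 and 1551 on its second probe set. Of 11 receptor tyrosine kinase genes 1 was at least 2-fold higher, ERBB3 at 1112 and 465 (2.39-fold), though its second probe set read 527 and 402. FGFR4 read 843 and 484 (1.74-fold higher), FGFR3 2744 and 1607 (1.71-fold higher), and the brightest probe set of EGFR 169, under background, with IRX1::GFP and 272 in the GFP control. The next probe set of EGFR read 210 and 122, so no direction can be given for it.

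Of the ERK-responsive output genes, 11 of 16 were at least 2-fold higher and 0 lower, beside 10.4% of all genes higher, and their median log2 ratio was 1.30. EGR3, a zinc finger factor, read 3781 with IRX1::GFP and 281 in the GFP control (13.4-fold), FOS, part of the AP-1 factor, 6777 and 1062 (6.38-fold), CCND1, which encodes cyclin D1, 716 and 155 (4.62-fold, past the filter through its IRX1::GFP signal alone) and IER3, an early survival gene, 9081 and 2382 (3.81-fold). This list overlaps other known immediate early genes, some of which the study named from these arrays, so it is not independent evidence of direction. The 11 became 10 after median centring and after quantile normalization. When probe sets marked for shared probes were dropped, the count was 8 of 12, with a median of 1.23. The 3 DUSP members left under that setting (DUSP4, DUSP5 and DUSP8) had a median of 1.28, which is the DUSP5 value alone. The DUSP4 value there has a GFP control signal under background, and the DUSP8 probe sets disagreed, so these medians give no ranking.

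Further lists put these values beside genes outside the pathway. Of 6 p53 target genes past the filter none was at least 2-fold higher and 2 were lower, MDM2 at 8019 with IRX1::GFP and 25304 in the GFP control (3.16-fold) and SESN1, a stress-response gene, at 1389 and 3064 (2.21-fold). SESN2 read 6186 and 8601 (1.39-fold lower), but 5702 and 5687 on its second probe set. GADD45A read 36637 and 41916 (1.14-fold lower). Of 11 reference genes none was past 2-fold in either direction, with a median log2 ratio of 0.22, and -0.05 when probe sets marked for shared probes were dropped. Among them TBP read 2319 and 3946 (1.7-fold lower), SDHA 5067 and 3515 (1.44-fold higher), ACTB 56647 and 43271 (1.31-fold higher) and PGK1 30739 and 25076 (1.23-fold higher). The differences of DUSP6, DUSP8, SPRY2, SPRY4, SPRED1 and SPRED2 on their brightest probe sets were thus no larger than that of TBP. Array control probe sets, which are not in this list, had log2 ratios of 0.26 at the 3-prime end and 1.24 at the 5-prime end of ACTB. For GAPDH they were 0.21 and 0.48, so the difference of a reference gene can depend on where its probes lie.

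**Figure D3:**
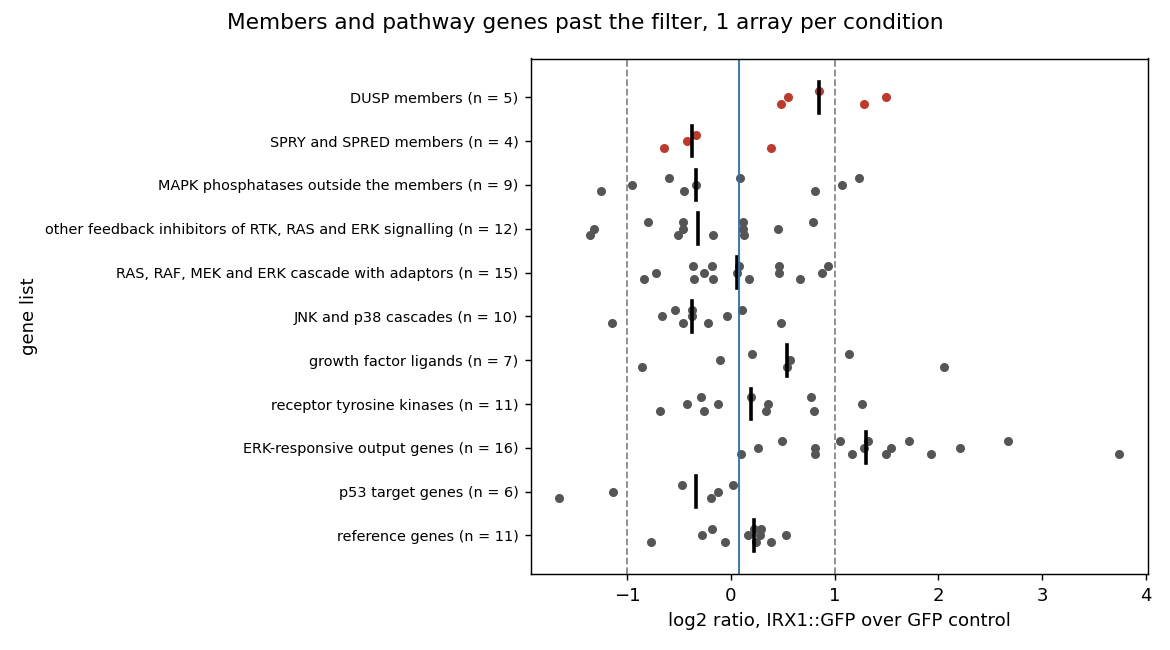
Log2 ratio (x, IRX1::GFP over GFP control) of each gene past the filter, by its brightest probe set, for the DUSP members, the SPRY and SPRED members (red) and the pathway and comparison lists (grey), with black bars at list medians, a blue line at the median of all genes, 0.07, and dashed lines at 2-fold. The DUSP median of 0.85 lies right of the blue line, the SPRY and SPRED median of -0.38 left of it, and the ERK-responsive output genes have the rightmost median, 1.30.

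**Figure D4:**
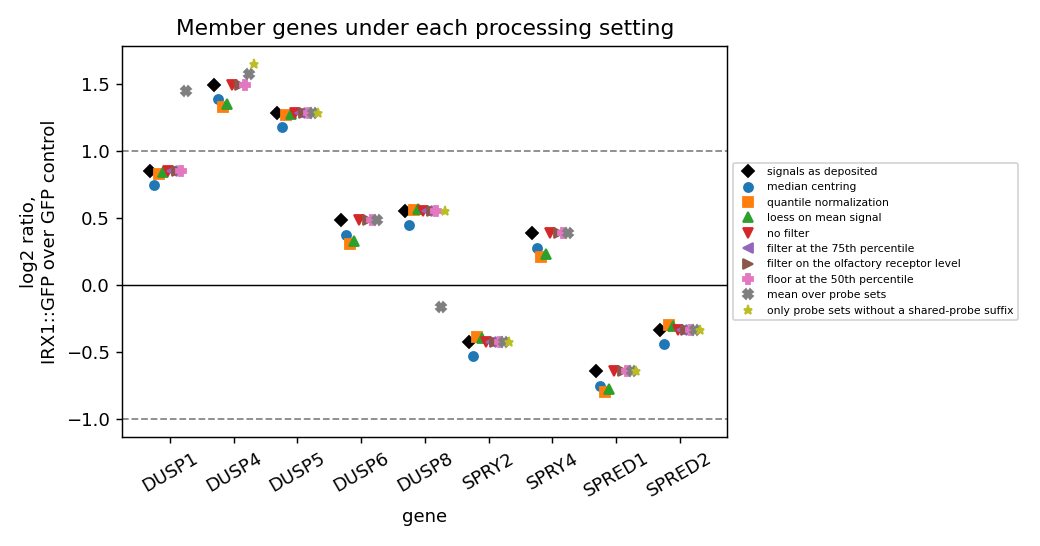
Log2 ratio (y, IRX1::GFP over GFP control) of the 9 member genes past the filter (x), with 1 symbol for each way of scaling, filtering or combining probe sets and dashed lines at 2-fold. DUSP4 and DUSP5 lie above 2-fold under every setting in which they appear, though the filters and the floor leave their ratios unchanged. The mean over probe sets puts DUSP1 above 2-fold at 1.44 and DUSP8 below 0 at -0.16.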

How the data were processed

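HEK293T cells with IRX1::GFP or GFP alone gave 1 array each. The deposited values were linear intensities, the signals of MAS5 according to the submitters' notes (version not given in the sources used here). Scaling by the authors had brought both columns to a mean of 1000 once the top and bottom 2% were set aside. The study names more replicates than were analysed here, and whether an array is a single culture or a pool is not known. Probe sets with 1 gene symbol (41097 of 54675) were named from the platform annotation, and symbols were updated through RefSeq (GRCh38.p14), where 41043 were found. No probe set with several symbols held a member.

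The log2 of the signal ratio, with IRX1::GFP on top, was computed and no test was run. The filter was the 50th percentile of the mean signal over probe sets that are not array controls, and calls were made at 2-fold and 4-fold. The number of arrays limits the precision. Named genes were all members and, of each list, its counts and the up to 4 genes with the largest absolute ratios past the filter. HBB, other marker genes and MAP2K2 were added outside this rule. The members, lists and limits were chosen with earlier results of these data known. Alternatives were median centring, quantile normalization, loess (span 0.3), other filters, a floor, and other ways of combining probe sets. The steps were tested on simulated data with planted differences of 4-fold or more and noise set to the probe set SD. That test does not bear on calls near 2-fold or on differences between cultures. The software was Python 3.11.15 with numpy 2.4.6, pandas 2.3.3 and statsmodels 0.14.6, and matplotlib 3.10.9 drew the figures.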

Additional observations from a re-analysis of the deposited data

How the results depend on the processing

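Of the 10 members, DUSP4 and DUSP5 were at least 2-fold higher under every alternative in which they passed the filter, with log2 ratios of 1.32 to 1.65 and 1.17 to 1.28. The other filters and the floor left the ratio of every member past them unchanged, so only scaling and the choice of probe sets could move these values. The 1.65 of DUSP4 came from a probe set whose GFP control signal is under background, and DUSP5 has a single probe set. The count of members at least 2-fold higher was 1 with a filter at the 75th percentile, which DUSP4 did not pass, 3 as the mean over probe sets, where DUSP1 was added at 1.44, and 5 when probe sets were counted in place of genes. No member was at least 2-fold lower under any alternative run. DUSP8 changed sign as the mean over probe sets, to -0.16, and the other 8 genes past the filter kept their sign under each alternative that gave them a value. Without probe sets marked for shared probes DUSP1, DUSP6 and SPRY4 had no value, DUSP6 because its unmarked probe set did not pass the filter. With the filter at the 75th percentile DUSP4, DUSP6, SPRY4 and SPRED1 had no value. The median over the members, 0.48 as reported, was 0.11 in the first of these settings and 0.31 after quantile normalization. Median centring lowered each log2 ratio by 0.11. Over all genes, the counts at 2-fold were 3456 higher and 1983 lower with no filter, 513 and 415 with the filter at the 75th percentile, and 2070 and 1363 as probe sets, against 1267 and 651 as reported. No paired analysis was possible because there was a single array for either condition, and for that reason none could be left out. Signals near background limit the folds of DUSP4, DUSP6, SPRY4 and SPRED1.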
